A study of Mus musculus with 4 samples.

Results

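Primary mouse keratinocytes grown without DAPT were compared between day 7 and day 4, with 1 array for each day. The pair makes up 2 of the 4 arrays of the series, and was chosen by the sample titles that state no DAPT. A gene was compared when its detection p was below 0.01 on at least 1 of the pair, which held for 9879 of the 16593 genes measured. All 4 cultures were keratinocytes from neonatal mice of the 129 background with a Pou5f1::GFP transgene, which reports activity of the pluripotency gene Pou5f1 by fluorescence. The series states that they had been transduced with reprogramming transcription factors, which it does not name, and no array of cells without those factors was analysed here. The other pair of arrays came from cells given 2.5 uM DAPT, an inhibitor of gamma-secretase (the protease whose cut sets free the signalling part of Notch receptors), and was collected on day 4 or day 7. The treatment field of the labels reads DAPT for all 4 samples, so the untreated pair rests on its titles.

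Keratinocytes of the basal layer divide, hold to the basement membrane through integrins and hemidesmosomes, and make keratins 5 and 14. On leaving that layer they stop dividing and switch to keratins 1 and 10, and then to the proteins that are crosslinked into the cornified envelope. Reprogramming factors act against such a settled identity: epithelial cells that receive them can lose or change their own program well before any pluripotency gene becomes active.

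The arrays of the pair differed in brightness, with a mean intensity of 472 on day 4 and 323 on day 7. Of 25697 probes, 14145 were detected on day 4 and 12281 on day 7. There is no replicate, so a difference is that between single arrays and carries no p-value, and the cultures behind them are not stated to be independent. The only error that can be measured is that of the probe: among 2038 genes with 2 probes detected on both arrays, the SD of the difference was 0.51 for 1 probe on the log2 scale. The matching SD for the pair with DAPT was 0.25. Of 282 genes whose brighter probe differed at least 2-fold, the other probe had the same direction in 231 and was itself at least 2-fold different in 120. Levels are given as normalized log2 intensities, and each difference is day 7 minus day 4 in log2 units. In whole cultures, fewer cells of a type and less RNA per cell cannot be told apart.

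Keratinocyte identity was present on both days. All 13 basal keratinocyte genes on the array were detected on each day, with the basal keratin gene Krt14 at 14.28 and 13.45 and the epithelial cadherin gene Cdh1 at 10.94 and 10.66. All 22 mesenchymal and fibroblast genes were also detected on day 4, and 21 of them on day 7. Of 12 melanocyte genes, 7 were detected on each day, and Tyr, Mitf, Gpr143 and Trpm1 on neither. On at least 1 of the days 8 of the 12 were detected, against 9879 of all 16593 genes. Of 12 immune cell genes 9 were detected on neither day, among them Ptprc, Cd207 and Cd74. Of 9 endothelial genes 6 were detected on day 4 and 4 on day 7, with Cdh5, Kdr and Vwf detected on neither.

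Between the days, 721 genes were at least 2-fold higher on day 7 (7.3% of those compared) and 643 at least 2-fold lower (6.51%), together 13.8%. Of these, 53 of the higher and 98 of the lower genes were detected on 1 array only, so their fold is a lower bound. The median over all genes was 0.09. Each list count below is to be read beside these shares of 7.3% higher and 6.51% lower. A count near them is no result about the list. Scaling the arrays by their medians in place of quantiles moved that median by -0.23 and changed the share of higher genes among those at least 2-fold different from 52.9% to 19.7%. Directions of small differences thus depend on the scaling, and the medians of lists that turned with it are given both ways. A bracketed range after a list median spans 8 other ways of processing the arrays.

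**Figure D1:**
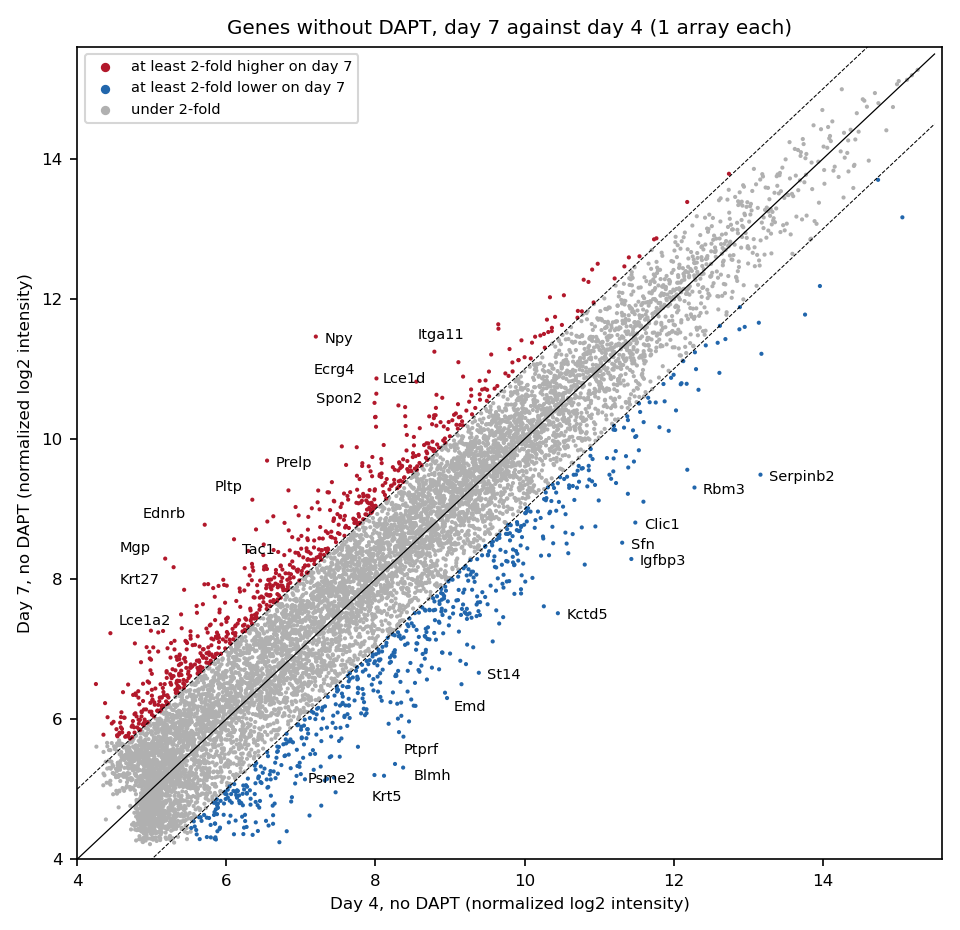
Normalized log2 intensity of each of 9879 genes on day 4 (x axis) and day 7 (y axis) without DAPT, 1 array per axis. The solid line marks equal levels and the dashed lines 2-fold, with the 12 highest and 12 lowest differences named. Npy lies farthest above the line and Serpinb2 farthest below.

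The gene with the largest difference was Npy, which encodes the secreted neuropeptide Y. It stood at 7.20 on day 4 and 11.46 on day 7, a difference of 4.26 or 19.2-fold. Tac1, the precursor gene of the neuropeptide substance P, was among the first 12 as well, at 6.10 and 8.57. Ednrb, a receptor for endothelins that melanocyte precursors use, stood at 5.71 and 8.78, and both of its probes were higher on day 7, by 2.27 and 3.07. The 12 highest genes thus included a pair of neuropeptide genes.

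Matrix genes in that group were Prelp, a leucine-rich proteoglycan that anchors basement membranes, at 6.55 and 9.69, and Mgp, an inhibitor of matrix calcification, at 5.18 and 8.29. Spon2, a secreted matrix protein gene, stood at 7.99 and 10.52. Itga11, which encodes the collagen-binding integrin subunit of fibroblasts, stood at 8.79 and 11.25. Each of these 4 was over 5-fold brighter on day 7 than on day 4. The rest of the 12 highest were Krt27, a keratin of the inner root sheath of hair follicles, at 2.88, Ecrg4, a secreted peptide precursor gene, at 2.85, the phospholipid transfer protein gene Pltp at 2.79, and the late cornified envelope genes Lce1d at 2.64 and Lce1a2. Lce1a2 was not detected on day 4 and was at least 5.73-fold higher on day 7.

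At the other end stood Serpinb2, an inhibitor of urokinase made by activated and differentiating keratinocytes. It measured 13.16 on day 4 and 9.49 on day 7, a 12.8-fold difference. Igfbp3, whose protein binds insulin-like growth factors outside cells, measured 11.43 and 8.29, and the neutral cysteine protease gene Blmh, which acts on filaggrin fragments in the upper epidermis, 8.37 and 5.31. The basal keratin gene Krt5 measured 8.11 and 5.19, a difference of -2.92. Among the 12 lowest were other genes of keratinocytes: Sfn, the 14-3-3 sigma protein of stratified epithelium, at -2.79, and St14, the membrane protease matriptase, at -2.73. Their second probes differed less, by -0.85 and -1.27.

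The remaining 6 were of wider expression. Rbm3, a cold-inducible RNA-binding protein gene, differed by -2.97, but by -0.92 in the mean over all its probes, dimmer ones included. Kctd5, an adaptor of a ubiquitin ligase, differed by -2.94 and -3.01 on its probes. The receptor phosphatase gene Ptprf stood at -2.90, with its other probe at -0.50, and Psme2, a proteasome activator subunit induced by interferon, at -2.79. Clic1, an intracellular chloride channel protein gene, and Emd, a protein of the inner nuclear membrane, stood at -2.68 and -2.66.

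Genes of cell division were lower on day 7 in both lists. All 16 of the G2 and M phase genes compared, of 21 measured, lay below 0, with 10 at least 2-fold lower, none higher, and a median of -1.19 against 0.09 for all genes. The 19 S phase and replication genes compared, of 22 measured, lay below 0 as well, with 7 at least 2-fold lower and a median of -0.85. Over the other ways of processing the medians ranged from -1.61 to -0.91 and from -1.24 to -0.45, the value nearest 0 for the S phase list coming from the mean over probes. The lists were textbook genes, chosen with earlier results of these data known.

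Cdk1, the kinase that drives entry into mitosis, stood at 9.31 on day 4 and 7.03 on day 7. That is 4.88-fold lower on its brightest probe, and -0.86 in the mean over its probes, dimmer ones included. Birc5, the survivin subunit of the chromosomal passenger complex, stood at 8.23 and 6.38, with its 3 probes between -2.30 and -1.85. Cdc20, an activator of the anaphase-promoting complex, stood at 8.70 and 7.14, and Nusap1, a spindle protein gene, at 8.56 and 7.08. Cdk1 had 1 detected probe. Birc5, Cdc20 and Nusap1 were lower on every detected probe, with the Cdc20 probes reaching up to -0.79 and the second Nusap1 probe at -0.43. The smallest differences in the list were under 2-fold, down to -0.35.

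Of the replication genes, Mcm5 and Mcm2, subunits of the replicative helicase, had the lowest differences, at -1.70 and -1.64. Rrm2, the regulated subunit of the enzyme that makes deoxyribonucleotides, stood at 7.43 and 5.95. Tyms, thymidylate synthase, stood at -1.27, with 1 of its 3 probes at 0.06. The sliding clamp gene Pcna lay near the other end of the list, at 9.48 and 9.36, within the probe SD. So the size of the difference varied among replication genes, from -1.70 to -0.08.

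The start regions of the 4 lowest G2 and M phase genes with a searched motif are printed because members of this list were lower together, and because the CHR and CCAAT elements are the known promoter elements of mitotic genes. Each line gives the 250 bases before the annotated start, 5′ to 3′ on the gene's strand, from RefSeq on build GRCm38.p6. They lie at chr10:69352913-69353162 (minus strand) for Cdk1, chr11:117848987-117849236 (plus strand) for Birc5, chr4:118437344-118437593 (minus strand) for Cdc20 and chr11:99024190-99024439 (minus strand) for Top2a. Capitals mark the CHR letters TTTGAA and the CCAAT box CCAAT on either strand, where a match on the other strand reads TTCAAA or ATTGG.
Cdk1: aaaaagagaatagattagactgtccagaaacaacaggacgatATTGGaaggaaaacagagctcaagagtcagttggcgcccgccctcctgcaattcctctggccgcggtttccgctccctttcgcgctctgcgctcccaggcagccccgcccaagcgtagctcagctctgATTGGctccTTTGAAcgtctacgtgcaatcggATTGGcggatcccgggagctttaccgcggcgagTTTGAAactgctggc
Birc5: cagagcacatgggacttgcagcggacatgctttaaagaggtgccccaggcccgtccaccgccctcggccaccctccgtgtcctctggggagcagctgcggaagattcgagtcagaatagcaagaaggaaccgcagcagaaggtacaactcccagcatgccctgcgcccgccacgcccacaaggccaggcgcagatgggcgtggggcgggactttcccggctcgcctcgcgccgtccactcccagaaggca
Cdc20: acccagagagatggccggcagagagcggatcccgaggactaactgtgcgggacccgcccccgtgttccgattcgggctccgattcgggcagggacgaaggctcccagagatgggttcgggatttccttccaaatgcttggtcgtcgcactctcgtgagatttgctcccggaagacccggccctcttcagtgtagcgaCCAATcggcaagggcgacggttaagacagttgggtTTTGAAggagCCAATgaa
Top2a: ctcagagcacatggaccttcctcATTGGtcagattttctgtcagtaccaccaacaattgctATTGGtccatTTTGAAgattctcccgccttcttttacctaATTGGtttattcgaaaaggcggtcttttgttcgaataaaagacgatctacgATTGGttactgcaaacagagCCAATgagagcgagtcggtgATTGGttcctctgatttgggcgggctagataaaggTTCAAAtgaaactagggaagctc

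Cdk1 held 2 CHR matches, the first bases of which lay 71 and 15 bases before the start, and 3 CCAAT matches. In Cdc20 the CHR match began 18 bases before the start and lay between a pair of CCAAT matches at 53 and 8. Top2a, the topoisomerase that untangles chromosomes, differed by -1.38, and its window held 2 CHR and 6 CCAAT matches. Birc5 held neither and qualified only through a CATGTG match, so the list was not uniform. No CHR match overlapped a CCAAT match in these windows (0 cases).

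Across windows that also take in the 50 bases after the start, 11 of the 13 compared G2 and M phase genes with a window held TTTGAA on either strand, against 20.2% of all 27025 genes with a window. CCAAT was found in 10 of the 13, against 41.1%. The E2F letters TTTGGCGC or TTTCGCGC were found in 6 of 16 compared S phase genes and in 1 of the 13 G2 and M phase genes, against 0.929% of all genes. These shares describe textbook lists and say nothing of which factor was bound.

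**Figure D2:**
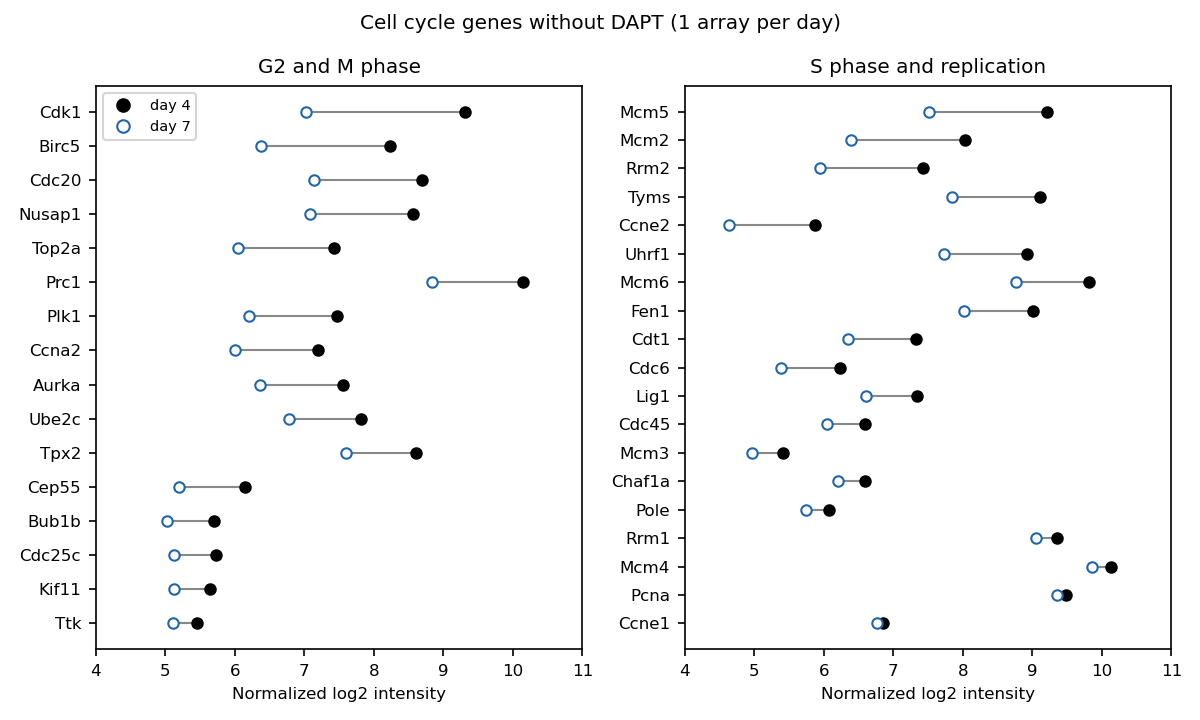
Normalized log2 intensity (x axis) of the 16 G2 and M phase genes (left) and 19 S phase and replication genes (right) on day 4 (filled) and day 7 (open), 1 array per day. Every open point lies to the left of its filled point, with differences from -2.29 for Cdk1 to -0.08.

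The inhibitors of the cell cycle did not move as a group: of 10 compared, 2 were higher by 2-fold or more and 1 lower, for a median of 0.16, which was -0.19 with the mean over probes. Btg2, an antiproliferative gene induced by p53, stood at 5.97 and 7.92, and Cdkn1c, the p57 inhibitor, at 10.50 and 11.63. Cdkn2b, the p15 inhibitor, differed by 0.94. In the other direction, Cdkn2d, the p19 inhibitor of the same family, stood at -1.61. Cdkn1a, the p21 inhibitor, differed by -0.65, with its 3 probes between -1.51 and -0.41, and Cdkn2a by 0.69, with its other probe at -0.53.

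Of the 19 compared p53 target genes 13 lay above 0 and 6 below, with 3 higher by 2-fold or more, 3 lower and a median of 0.32 (0.12 to 0.34). Fas, a death receptor gene, stood at 1.36, its probes ranging down to 0.05. Ei24, an autophagy protein gene, stood at -1.99, Sesn2, a stress sensor, was at least 3.35-fold lower, and Phlda3, an Akt repressor, stood at -1.17. Genes past 2-fold were thus as many in each direction.

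Basal keratinocyte genes were mostly lower on day 7, with 10 of 13 below 0. Of these 13, 5 were at least 2-fold lower and none higher, with a median of -0.83. Besides Krt5, Col17a1, the transmembrane collagen of hemidesmosomes, stood at 9.62 and 7.55 and was lower on all 3 probes, by -2.75 to -2.07. Itga3, a laminin-binding integrin subunit, stood at -1.52 and Lamb3, a laminin chain of the basement membrane, at -1.47. Trp63, the regulator of stratified epithelium, stood at 8.98 and 7.99, just short of 2-fold. Krt14 differed by -0.83. Integrin subunit gene Itgb1 and the plakin gene Dst stood at 0.76 and 0.69, but their other probes were at -0.14 and -0.41.

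Of 14 wound and activation genes of keratinocytes, 5 were at least 2-fold lower, none higher, with a median of -0.27 (-0.50 to -0.20). The wound keratin genes Krt6a and Krt6b stood at -2.66 and -1.80, and their second probes at -3.39 and -2.45. Plau, the urokinase that Serpinb2 inhibits, stood at 10.22 and 8.33. The alarmin genes S100a8 and S100a9, also induced in wounds, differed by 0.36 and 0.30, less than the probe SD. The wound keratin genes Krt16 and Krt17 stood at -0.57 and -0.20 and the urokinase receptor gene Plaur at -0.10, so members of the same group differed in size.

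Of 22 genes for simple epithelium and junctions, 3 were at least 2-fold lower and none higher, beside 6.51% and 7.3% of all genes. Their median was -0.33 (-0.37 to -0.19). Jup, which encodes plakoglobin of desmosomes, was at least 3.07-fold lower, as it was not detected on day 7. Krt19 stood at -1.41 and the desmosomal plaque gene Pkp1 at -1.24. Cdh1 differed by -0.28 and Perp, a desmosome protein gene, by 0.73, so the epithelial cadherin showed no difference beyond the probe SD of 0.51.

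**Figure D3:**
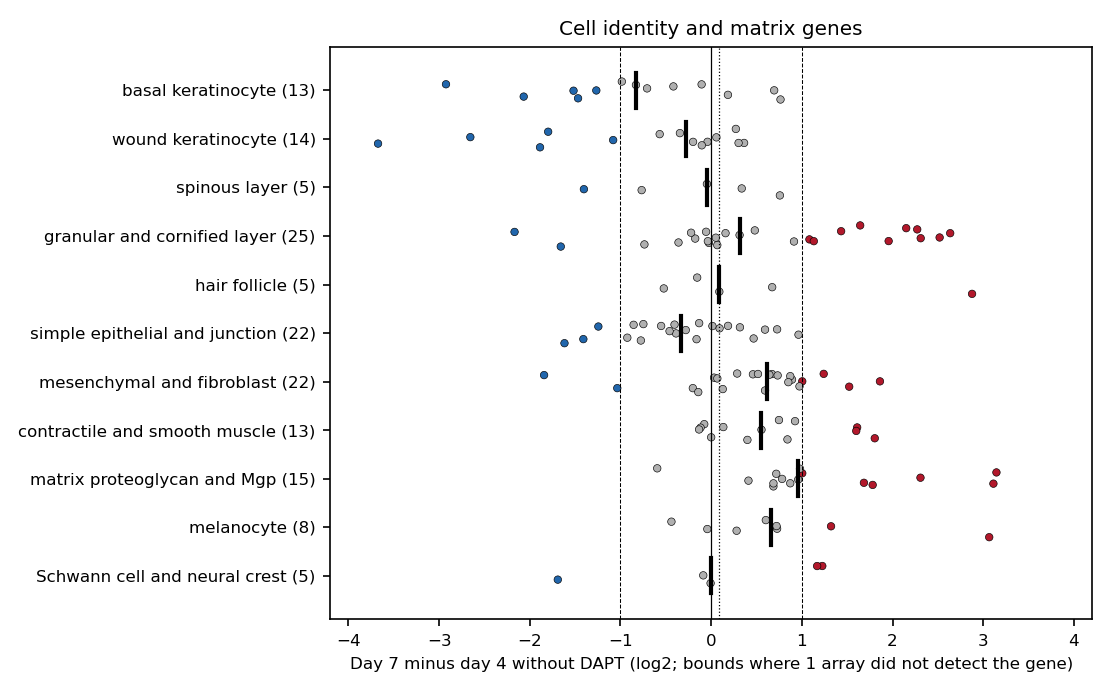
Day 7 minus day 4 without DAPT (x axis, log2) for each compared gene of 11 lists of cell identity and matrix genes, with the number of genes in brackets. Points are genes, red at least 2-fold higher and blue at least 2-fold lower, black bars are list medians, dashed lines mark 2-fold and the dotted line the median of all genes. Basal keratinocyte genes lie mostly to the left, matrix and mesenchymal genes mostly to the right, and the cornified layer list spans both sides.

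Differentiation genes did not move as one program. In the list for the granular and cornified layers, 10 of 25 compared genes were higher by 2-fold or more and 2 lower. Their median was 0.31, but -0.02 under median scaling. Lce1d, a late cornified envelope protein gene, stood at 8.01 and 10.65, Lce1f at 6.55 and 8.82, and Rptn, which encodes repetin, at 2.31 with its other probe at 2.10. The 2 lower genes were Ivl, which encodes the envelope scaffold involucrin, at 11.39 and 9.22, and Tgm1, the transglutaminase that crosslinks it, at 9.86 and 8.21. Lor, for loricrin, differed by -0.03. Genes of this list thus lay on both sides of 0 and near it.

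The Lce family was looked at as a whole after its values were seen. Of 14 Lce genes compared, 7 were at least 2-fold higher and 1 at least 2-fold lower, with a median of 1.01 and a range of -2.35 to 2.64. The lower one was Lce1m, at 8.54 and 6.19. Lce genes are close relatives, and the files do not say how far their probes separate them. With DAPT the same 14 genes had a median of 0.20.

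Spinous genes were few. Of 10 on the array 5 were compared, with 1 at least 2-fold lower and a median of -0.05, which was 0.02 with no detection filter. Krt10, a keratin of the first suprabasal layers, stood at 7.87 and 8.62, while its partner gene Krt1 was not detected on either day. Sbsn, which encodes the secreted protein suprabasin, stood at 6.54 and 5.14, with both probes lower. Of 20 hair follicle genes 15 were detected on neither day, and 5 were compared. Krt27 was the only one at least 2-fold different, at 5.29 and 8.17, although its inner root sheath relatives Krt25, Krt71 and Krt73 were not detected. Gata3, a regulator of that sheath, differed by 0.67, and the list median of 0.09 was -0.18 under median scaling.

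Matrix and mesenchymal genes were mostly higher on day 7. Of 22 mesenchymal and fibroblast genes, 18 lay above 0, with 4 at least 2-fold higher, 2 lower and a median of 0.62, which was 0.37 under median scaling. Col5a2, a fibrillar collagen chain, stood at 7.38 and 9.24, and Zeb1, a repressor of epithelial genes, at 8.50 and 9.74. Col3a1 stood at 1.52 and its other probe at -0.05, and Col1a1 at 0.67. Cdh2, the neural cadherin gene often gained in epithelial to mesenchymal transition, went the other way, at 6.92 and 5.08 with both probes lower. S100a4 stood at -1.04, and the intermediate filament gene Vim differed by -0.20. Other regulators of that transition stood at 0.59 (Snai1), 0.52 (Twist1) and 0.29 (Zeb2), so its genes lay on both sides of 0 without DAPT. With DAPT, Cdh2 and S100a4 stood at 0.32 and 0.30, and Zeb1 at 0.67.

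The 15 compared genes of matrix proteoglycans and elastic matrix had the highest list median, 0.96, with 6 at least 2-fold higher and none lower. The list was chosen with high values of Prelp and Mgp in these data known, so its direction is not independent of them. Eln, which encodes elastin, was not detected on day 4 and was at least 4.95-fold higher on day 7. Aspn, a small leucine-rich proteoglycan gene, stood at 6.63 and 8.41. Tnc, for tenascin C, a matrix protein of wounds, was lower on all 6 detected probes, by -1.60 to -0.17. Under median scaling the list median was 0.92.

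Of 13 contractile and smooth muscle genes, 3 were at least 2-fold higher and none lower, with a median of 0.55 (0.39 to 0.55, the lowest under median scaling). Mylk, the kinase of myosin light chains, stood at 8.11 and 9.91 with both probes higher, Myh11, the smooth muscle myosin, at 7.01 and 8.62, and Lmod1, an actin filament nucleator, at 6.54 and 8.14. The tropomyosin gene Tpm2 and the smoothelin gene Smtn differed by -0.12 and -0.13. The smooth muscle actin gene Acta2 stood at 15.20 on both days, near the highest level on the arrays, 15.27. Tagln differed by 0.55, and Cnn1 was not detected on either day. The summed normalized intensity of the mesenchymal list on a linear scale was 30600 on day 4 and 44486 on day 7, and its part in these results was not tested.

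Other matrix lists differed less. Of 8 collagen chain genes of other types, 1 was at least 2-fold higher, Col6a2 with levels of 6.98 and 7.98, and the median was 0.15. Of 15 matrix protease and inhibitor genes, 1 was higher and 2 lower, beside 7.3% and 6.51% of all genes. Their median was 0.27 (0.14 to 0.36). Mmp23 stood at 8.71 and 9.94, Adamts1, a protease of proteoglycans, was at least 2.33-fold lower, and the membrane protease gene Mmp14 differed by -0.09.

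Melanocyte genes had a median of 0.66, with 2 of 8 at least 2-fold higher and none lower. The higher genes were Ednrb and Oca2, which encodes a melanosomal transporter, at 5.29 and 6.61. Pigment enzyme and melanosome genes differed less: Tyrp1 by 0.73, with its other probe at 0.12, Mlana by 0.72, Dct by 0.60 and Pmel by -0.04. With no detection filter the list median was 0.29, and under median scaling 0.32. Summed intensity of the list was 774 on day 4 and 1519 on day 7, a linear sum in which bright genes weigh most. Tyrp1 and Ednrb stood at 8.46 and 5.71 on day 4 and at 9.18 and 8.78 on day 7. Tyr, for the first enzyme of melanin synthesis, was not detected. Of 5 melanocyte genes with a promoter window, 4 held CATGTG, the core of the M-box bound by the factor Mitf, against 15.9% of all genes.

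Among Schwann cell and neural crest genes, 5 of 8 were compared, with 2 at least 2-fold higher and 1, Sox2, lower. The median of -0.01 was 0.05 under median scaling. S100b, a calcium-binding protein of glia and melanocytes, was at least 2.34-fold higher, and Gap43, a growth cone protein gene, stood at 10.00 and 11.17. The crest and glial genes Foxd3, Gfap and Cdh19 were not detected on either day.

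Markers of further cell types were detected to differing extents. On day 4 and day 7, 3 and 3 of 12 immune cell genes were detected, and 6 and 4 of 9 endothelial genes. For skeletal muscle it was 7 of 9 on each day, and for adipocytes 2 and 4 of 8. Of 3 immune cell genes compared (median 0.22, range 0.01 to 0.44), Lyz2, the lysozyme of macrophages, was the only one at least 2-fold different, at 1.60, with H2-Ab1 at 0.22 and Cd3e at 0.13. Of 6 endothelial genes 1 was higher and 1 lower, with a median of 0.13 (-0.07 with no detection filter): Tek, the receptor of angiopoietins, stood at 1.42, and Egfl7 at -2.21 with another probe at 0.01. None of 7 skeletal muscle genes (median 0.14, and -0.12 under median scaling) and none of 4 adipocyte genes (median 0.19) was 2-fold different, with Myog at 0.90 and Pparg at 0.43.

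Of the reprogramming factor genes, Sox2, Myc and Pou5f1 were dim and Klf4 was not. Sox2, a factor also used by neural crest derivatives, stood at 6.60 and 4.91, a difference of -1.69. Myc was at least 1.90-fold lower, from 5.45, and Pou5f1 at least 1.45-fold lower, from 5.11, since neither was detected on day 7. These bounds leave out measurement error, and the Pou5f1 difference of -0.54 was close to the probe SD of 0.51. With DAPT, Pou5f1 stood at 5.10 on day 4, where it was not detected, and at 4.90 on day 7, where it was. Klf4, which keratinocytes express by themselves, stood at 8.02 and 8.66, but its 3 probes ranged from -1.39 to 0.64. The probes are not stated to separate a transgene from the cells' own transcript. Of these factor genes, 1 of 4 was thus 2-fold lower and none higher, with a median of -0.73 (-0.95 to -0.35).

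Of 18 pluripotency network genes on the array 5 were compared, and Nanog, central to the network, was not detected on either day. L1td1, an RNA-binding protein gene of pluripotent cells, stood at 5.77 and 6.92, and Klf2 at 6.36 and 7.34. Klf5, which basal keratinocytes also express, differed by -0.54 and Zfp42 by -0.04. Their median was 0.18, and -0.04 with the mean over probes. Of 18 chromatin modifier genes, 2 were at least 2-fold lower and none higher, beside 6.51% and 7.3% of all genes. Their median was -0.32 (-0.61 to -0.09). Ezh2, the methyltransferase of the Polycomb repressive complex, was at least 3.27-fold lower, as it was not detected on day 7. Mbd3, a subunit of the NuRD complex, stood at 9.24 and 7.98, while Hdac2 differed by 0.77. With DAPT, Ezh2, Mbd3 and Hdac2 differed by 0.47, 0.36 and -0.15.

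Notch receptor, ligand and target genes differed by less than 2-fold. None of 7 receptor and ligand genes was 2-fold different, with a median of -0.05 that was 0.14 over genes detected on both arrays. Notch1, the main receptor gene of the epidermis, stood at 6.94 and 6.25, its ligand gene Jag1 at 9.69 and 10.09, and Dll3, an inhibitory ligand gene, at 5.70 and 6.46. The 3 detected targets were Hes1 at 8.20 and 7.59, Hey1 at -0.10 and Nrarp at -0.02, for a median of -0.10. Of 12 gamma-secretase and processing genes, 1 was 2-fold lower, with a median of 0.26 that was -0.13 under median scaling. It was Aph1a, a gamma-secretase subunit, at 8.07 and 6.32. Furin, which cleaves the Notch receptor on its way to the surface, stood at 0.65 with its other probe at -0.27.

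Insulin-like growth factor genes went both ways. Of 12 compared, 2 were higher by 2-fold or more and 2 lower, for a median of 0.33 (0.03 to 0.52). Igfbp4 stood at 6.18 and 7.87 with both probes higher, and Igfbp2 at 9.18 and 10.89, its other probe at -0.05. Igf1r, the receptor gene, stood at 7.59 and 6.05, so that the lower genes were this receptor and Igfbp3. In the transforming growth factor beta and BMP list, 3 of 24 were higher by 2-fold or more and 1 lower. Of all genes, 7.3% were higher and 6.51% lower. The list median was 0.36 (0.14 to 0.39). Tgfb3, a ligand gene, stood at 7.91 and 9.61, and Tgfbi, a matrix protein induced by the pathway, at 6.36 and 8.12, its other probe at 0.07. Fst, which encodes the activin antagonist follistatin, stood at 9.72 and 7.88, and Inhba, the activin subunit gene, at -0.98.

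Of 17 Wnt pathway genes, 2 were higher by 2-fold or more and 1 lower, and the median of 0.08 was -0.08 under median scaling. The epidermal ligand genes Wnt7b, Wnt4, Wnt7a and Wnt10a stood at -1.68, -0.92, -0.78 and -0.66. Sfrp1, a secreted Wnt antagonist, stood at 5.86 and 7.18 and the transcription factor gene Tcf7l2 at 6.68 and 7.69. In the EGF family, 1 of 9 was at least 2-fold lower, with a median of -0.04 that was 0.02 in the authors' table. It was Hbegf, a ligand of wounded epidermis, at 8.88 and 7.80, and Epgn, another ligand, stood at -0.84.

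Immune response genes gave no common direction. Of 19 interferon response genes, 1 was higher by 2-fold or more and 3 lower, for a median of 0.06 that was -0.34 under median scaling. Rsad2, an antiviral enzyme, stood at 6.64 and 8.02, while Ifi35, Bst2 and Isg15 stood at -1.28, -1.15 and -1.13. Of 22 cytokine genes, 2 were higher and 1 lower, beside 7.3% and 6.51% of all genes. Their median was -0.17 (-0.42 to -0.02). Ccl7, a monocyte chemokine, stood at 12.74 and 13.79, Cxcl14 at 1.53 with its other probe at -0.08, and Csf2, a growth factor for granulocytes and macrophages, at 8.19 and 6.80.

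Of 7 complement and apolipoprotein genes, 2 were higher and 2 lower, with a median of 0.76 (0.29 to 0.84, the lowest under median scaling). Clu, for the chaperone clusterin, stood at 12.18 and 9.56, and Lcn2, an antimicrobial lipocalin, at -1.12. Serping1, an inhibitor of complement C1, stood at 6.85 and 8.41 and complement factor B, Cfb, was at least 2.24-fold higher. The complement genes C4b, C1s1 and C1ra of the list were not detected on either day. The 2 higher genes thus do not speak for complement genes at large.

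**Figure D4:**
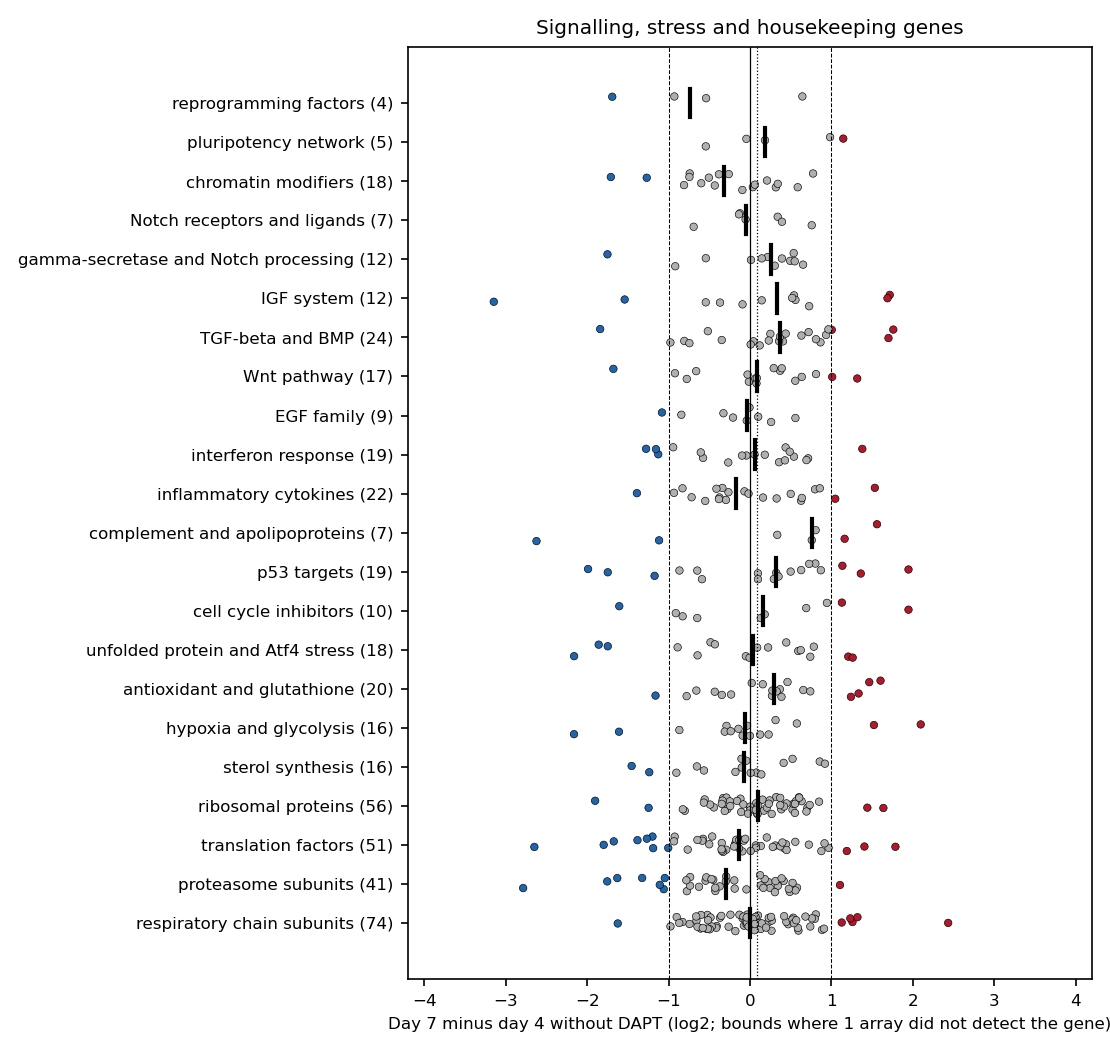
Day 7 minus day 4 without DAPT (x axis, log2) for each compared gene of 22 lists for signalling, stress and housekeeping, with the number of genes in brackets. Colours and lines are as in the plot of cell identity genes. Most list medians lie near the dotted median of all genes, and translation factor and proteasome genes hold more points at least 2-fold lower than higher.

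Stress and metabolic genes were mixed within each list. Of 18 genes of the unfolded protein response and of Atf4, 2 were higher by 2-fold or more and 3 lower, for a median of 0.04 (-0.09 under median scaling). Atf4, the transcription factor of amino acid stress, stood at 9.95 and 7.79, and its target Phgdh, which starts serine synthesis, was at least 3.62-fold lower. Chac1, another target of Atf4 and a glutathione-degrading enzyme, stood at 8.98 and 10.24, opposite to Atf4 itself. Of 20 antioxidant genes, 4 were higher and 1 lower, with a median of 0.30. Gpx3, a secreted glutathione peroxidase, stood at 8.72 and 10.32, Mt2, a metallothionein, at 6.66 and 8.13, and Txnrd1 at 9.29 and 10.62. Gpx2, an epithelial peroxidase, stood at -1.16.

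Of 16 hypoxia and glycolysis genes, 2 were higher and 2 lower, with a median of -0.06. P4ha1, a collagen prolyl hydroxylase, stood at 4.93 and 7.03, and Ndrg1 at 1.52 with its other probe at 0.36. Pfkp, a phosphofructokinase, stood at -2.16 with its other probe at -0.43, and Pgam1, a later glycolytic enzyme, at 9.85 and 8.24. Of 16 sterol synthesis genes, 2 were lower, Nsdhl at -1.45 (its probes up to 0.57) and Cyp51 at -1.24, and the median was -0.07 (-0.42 to -0.06). Of 13 fatty acid synthesis genes, 2 desaturase genes were lower, Fads2 by at least 2.98-fold and Scd2 at -1.14, with a median of 0.02, or -0.12 under median scaling. Of 18 chaperone and cold shock genes, Rbm3 alone was 2-fold different on the brightest probe, and the median was 0.09. Cct3 stood at -0.28 with its other probe at -2.22.

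Immediate early genes held 1 gene at least 2-fold higher, Egr1 at 8.87 and 10.24, and 1 lower, Junb at 10.89 and 9.86, of 15 compared. Their median of 0.12 was -0.23 under median scaling. Of 19 lysosomal genes, Ctsf stood at 1.36 and Ctsa was at least 2.89-fold lower on its brightest probe, with another at 0.15, and the median was 0.33 (0.01 to 0.36).

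Among the large families of the protein synthesis and degradation machinery, lower genes outnumbered higher ones in translation factors and the proteasome without DAPT. Over all genes compared, 6.51% were at least 2-fold lower and 7.3% higher. Of 51 translation factor genes, 8 were at least 2-fold lower and 3 higher, with a median of -0.13 (-0.26 to -0.12). Eef2, the translocase of elongation, stood at 10.26 and 7.61 and was lower on all 3 probes. Eif3b stood at 9.23 and 7.43 and Eef1a2 was at least 3.45-fold higher. Of 41 proteasome genes, 7 were lower and 1 higher, with a median of -0.29 (-0.34 to -0.19). Psmd5 stood at 6.94 and 5.19, Psmb7 at -1.63 (its 3 probes from -2.22 to -0.42), and Psmd1 at 1.11. Ribosomal protein genes had a median of 0.10, with 2 of 56 higher and 2 lower, and the respiratory chain genes one of 0.00, with 5 of 74 higher and 1 lower. Rps2, of the small ribosomal subunit, stood at 15.07 and 13.17, and Cox6b2, the testis form of a cytochrome oxidase subunit, at 6.83 and 9.27. With DAPT, 1 of 52 translation factor genes was at least 2-fold lower and 1 higher. Of 41 proteasome genes, 0 were lower with DAPT and 1 higher. On the DAPT arrays Eef2 stood at 7.75 on day 4 and 7.85 on day 7.

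The pair of arrays with DAPT shares no array with the pair without it, so its values were set beside these. With DAPT, 2.97% of 9860 genes were at least 2-fold higher on day 7 and 1.96% lower, fewer than the 7.3% and 6.51% without it. The probe SD was 0.25 with DAPT and 0.51 without it, and its part in these shares was not tested. Of 717 higher genes that were also compared with DAPT, 124 (17.3%) were at least 2-fold higher there and 1 at least 2-fold lower. Of 635 lower genes, 60 (9.45%) were at least 2-fold lower with DAPT and 22 (3.46%) at least 2-fold higher. Among the lower genes 48.3% lay above 0 with DAPT, close to the 46.9% of all 9380 genes compared in both. Among the higher genes the share above 0 was 68.1%. Across the 9380 genes, which are not independent and share normalization, Pearson's r between the pairs was 0.22 and Spearman's rho 0.14.

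The most extreme genes differed in this respect by direction. All 12 of the highest genes lay above 0 with DAPT and 10 of them at least 2-fold, with Npy at 3.46, Prelp at 3.79, Itga11 at 2.87 and Ednrb at 1.98. Lce1d and Lce1a2, at 0.74 and 0.16, were the other two. With DAPT on day 4 these Lce genes already stood at 10.42 and 7.54, above their untreated day 4 levels of 8.01 and 4.44, the latter not detected. Of the 12 lowest genes, 4 were at least 2-fold lower with DAPT: Serpinb2 at -1.91, Blmh at -1.53, Kctd5 at -1.83 and Krt5 at -2.23. The other 8 lay between -0.52 and 0.51 with DAPT.

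For those 8 genes the untreated day 4 array held the highest of the 4 levels. Igfbp3 stood at 11.43 there, and at 8.77, 8.29 and 9.28 on the DAPT day 4, untreated day 7 and DAPT day 7 arrays. Clic1 stood at 11.49 there and at 9.44, 8.81 and 9.59 on the others, in the same order. The untreated day 4 array was also the brightest of the 4 before normalization, at a mean of 472 against 365, 323 and 416. The part of array brightness in these differences was not tested.

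Of the gene lists, cell division and basal keratinocyte genes were lower on day 7 in both pairs. With DAPT the median was -0.86 over the 16 G2 and M phase genes, -0.55 over the 19 S phase genes and -0.83 over the 13 basal keratinocyte genes. Matrix proteoglycan, mesenchymal and contractile genes had medians of 1.06, 0.70 and 0.31 with DAPT. The differences between the pairs have no error estimate and were not tested.

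**Figure D5:**
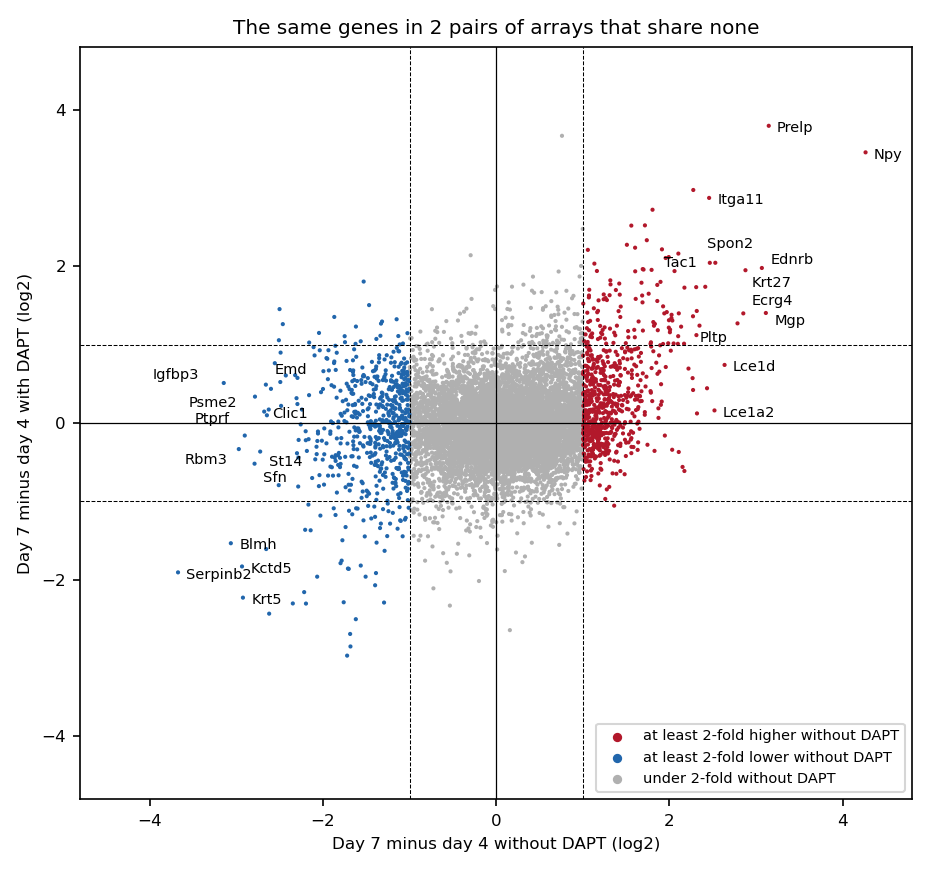
Day 7 minus day 4 for 9380 genes without DAPT (x axis, log2) and with DAPT (y axis, log2), 1 array per group. Colours mark genes at least 2-fold different without DAPT, dashed lines mark 2-fold, and the 12 highest and 12 lowest genes without DAPT are named. The named higher genes all lie above 0 on the y axis, whereas the named lower genes lie between -2.23 and 0.51.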

How the data were processed

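Illumina bead arrays measured total RNA, which per the labels' protocols was extracted by Trizol LS and labelled with biotin through a MessageAmp kit. The submitters' processing notes name BeadStudio (version not given in the sources used here). Per the file headers, the deposited non-normalized values are an intensity and a detection p-value for each probe. The values show background subtraction before deposit, with 5177 to 5847 of 25697 probes per array below 0. The authors also deposited normalized intensity values on a linear scale, by a method not given in the sources used here, with column medians of 24.7 to 26.0.

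Here neqc of limma 3.58.1 (R 4.3.3) took the background from negative controls that it infers through the detection p-value, added an offset of 16, normalized all 4 arrays by quantiles and took log2. Platform annotation gave 1 gene symbol to 23978 probes and several to 0, and the 1719 others have no name here. RefSeq (GRCm38.p6) held the Entrez identifiers of 23962 and changed 0 symbols. A gene was represented by its brightest probe by mean level across all 4 arrays. Where the dimmer array did not detect that probe, its level there was the lowest signal detected among named probes on the array (4.71 on day 4 and 4.52 on day 7 without DAPT) or its own signal, whichever was higher, and the fold is a bound. Over all probes the lowest detected signal on day 4 was 4.62. Counts used Python 3.11.15, pandas 2.3.3 and numpy 2.4.6, and plots matplotlib 3.10.9. The count steps were tested on simulated data.

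The 46 gene lists, the named genes and the comparison were chosen with earlier results of these data known. Named were the 12 genes at each end, up to 4 members of a list by size and up to 2 of opposite sign, and a fixed set of marker genes, of which Flg, Mki67 and Ccnb1 are not analysed here. Top2a was named as a printed promoter, and Lce1m, Krt16, Krt17, Plaur, Snai1, Twist1 and Zeb2 after their values were seen. Promoter windows came from RefSeq tables, from 250 bases before to 50 after a start, and a gene with several windows counted if any held a motif. The CArG box was found in 2 of 10 contractile genes, against 1.81% of all genes. Alternatives changed the background, scaling, arrays, offset, detection filter, probe rule, source table and fold threshold.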

Additional observations from a re-analysis of the deposited data

Results flagged for a closer look

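Named genes that were at least 2-fold different in opposite directions without and with DAPT are given here, and the difference between the pairs was not tested. They were Atf4 at -2.16 without and 1.03 with DAPT, Sesn2 at -1.75 and 1.03, Aph1a at -1.75 and 1.11, and Ctsa at -1.53 and 1.81. Sesn2 and Ctsa were not detected on the untreated day 7 array, nor Ctsa on the DAPT day 4 array, so both values of Ctsa and the first of Sesn2 are bounds. The melanocyte list had a median of 0.66 without DAPT over 8 genes and of -0.28 with DAPT over 6, and the hair follicle list 0.090 over 5 and -0.51 over 7. Outside the named genes, 867 unnamed probes were detected on at least 1 array of the untreated pair, and 46 of them were at least 2-fold higher on day 7 and 74 lower.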

How the results depend on the processing

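The counts of genes at least 2-fold different, 721 higher and 643 lower, were 297 and 1212 with median scaling, 380 and 405 with an offset of 50, and 1166 higher with the authors' normalized table, which gave 742 lower. At 1.5-fold they were 2154 and 1520, and at 3-fold 133 and 200. Without background correction, with normalization of the untreated pair alone, with no detection filter, with detection on both arrays and with the mean over probes they ranged from 539 to 750 and from 545 to 683. The measured difference in place of the bound, added after the data were seen, gave 740 and 650. An offset compresses dim genes by its construction, and the cause of the others was not tested. None of 46 list medians moved by more than the probe SD of 0.51 under these settings, fold thresholds and the measured difference aside. That SD is of 1 probe, so it is a wide measure for the median of a list. The melanocyte median ranged from 0.29 to 0.72, the complement and apolipoprotein median from 0.29 to 0.84 and the mesenchymal median from 0.37 to 0.64. The sign changed under at least 1 of these settings for 16 list medians, none over 0.31 in size. No named gene that differed at least 2-fold changed sign under them. The mean over probes moved 44 of 264 named genes by more than that SD, the offset moved 26, the authors' values moved 17 and median scaling moved 3. No paired analysis was possible because each group holds 1 array, and leaving out an array leaves no comparison. Dim genes are limited by the background, and the arrays' number limits the precision of all values.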
